A study of Homo sapiens with 42 samples.

Results

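The CD44 locus was taken as every loop of a deposited loop table on chromosome 11 with an anchor that starts between 34700000 and 35600000 (GRCh38), which gave 23 of the 33914 loops and 23 of the 1628 on that chromosome. This rule used position alone and no measured value, although members were chosen with earlier results of these data known. CD44 itself lies at chr11:35139171-35232402 on the plus strand and is 93232 bp long in RefSeq (GRCh38.p14). Contacts were measured by in situ Hi-C, in which DNA ends close together in crosslinked nuclei are ligated and sequenced, in K562 cells, a human leukemia line labelled wild type. All 42 samples came from this line, with 14 from untreated cells (0 h) and as many after 6 h and after 72 h in 25 nM PMA, a phorbol ester that drives K562 toward a megakaryocyte-like state. Each time had 4 biological replicates, and the technical replicates of each were summed, giving 12 libraries. Whether the biological replicates were separate cultures is not given in the labels, so that p-values measure the spread between these samples.

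CD44 is a cell surface glycoprotein that binds hyaluronan, a large sugar polymer of the extracellular matrix, and serves in adhesion and migration of blood cells. Its transcript is spliced into a standard form and into variants with additional exons. A chromatin loop is a pair of distant anchors that touch more often than their surroundings. Many loops form where cohesin extrudes DNA until it meets CTCF, and others join promoters to enhancers, so that a loop can bring a gene's start close to distant DNA or set the gene inside a closed span.

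Loop anchors were 10 kb wide, and the 23 loops joined anchors 40 to 1060 kb apart. They used 32 anchors, of which 10 served more than 1 loop and 6 contained 1 end of a protein-coding gene. A single loop, loop21697, had an anchor that held the start of CD44 (chr11:35130001-35140000). That start, at 35139171, lies near the edge of the anchor, and the next anchor, used by loop21696, begins at 35140001. Another 4 loops had an anchor elsewhere in CD44, and 3 of these 4 met at its 3′ end (chr11:35230001-35240000). A further 5 loops spanned CD44 without touching it, and 13 did not reach it.

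The anchor at the start of CD44 was the only member anchor that held the start of a protein-coding gene. It also held the start of CD44-DT, a long noncoding RNA gene transcribed the other way, 1139 bp from the CD44 start. The 250 bases before the CD44 start (chr11:35138921-35139170, plus strand, RefSeq, GRCh38.p14) are shown because they are the promoter that loop21697 carries, with matches to the motifs searched in capitals.
CD44: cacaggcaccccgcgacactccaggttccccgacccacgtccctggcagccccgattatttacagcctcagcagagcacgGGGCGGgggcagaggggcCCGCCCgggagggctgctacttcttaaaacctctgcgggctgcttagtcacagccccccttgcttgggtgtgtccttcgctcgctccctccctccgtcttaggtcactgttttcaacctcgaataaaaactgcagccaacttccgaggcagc
GC bases made up 62.4% of this stretch, against 38.4% before the CD44-DT start and a median of 58.0% over 35116 RefSeq promoters. Both strands were searched for SP1 (GGGCGG), AP-1 (TGANTCA), EGR1 (GCGNGGGCG), the site of GATA factors (AGATAA), a CTCF core (AGGNGGC) and ETS (CCGGAAG). EGR1 and SP1 letters can overlap. The CD44 stretch held 2 SP1 matches, 1 on each strand, which begin 170 and 152 bases before the start, and no match to the other motifs. Of the 250-base promoter stretches, 42.6% held an SP1 match, 6.57% AP-1, 8.41% EGR1, 9.17% GATA, 31.55% the CTCF core and 8.52% ETS.

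The libraries held 736929 to 1472197 contacts over all loops, of which 588 to 936 lay in the locus. Its loops took 0.0708% ± 0.0067 of all contacts at 0 h (SD, n = 4), 0.0774% ± 0.0031 at 6 h (n = 4) and 0.0779% ± 0.0012 at 72 h (n = 3). At 72 h, the counts of replicates 3 and 4 did not differ beyond sampling noise (chi-square per degree of freedom 1.003, p = 0.367), so that these were counted as 1 sample in each mean and SD. The tests kept them as 2 libraries, and calls lost when they are summed to 1 are given beside the loop. All other pairs of the same time differed beyond sampling noise. Replicates 1 and 2 of each time had 3 technical replicates, while replicates 3 and 4 had 2, each sequenced 2 times, and values within each pair of replicates are given beside the results they change.

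After 72 h of PMA, contacts fell at the loop from the CD44 start and at both loops from PDHX to the CD44 end. They rose at the loop from the CD44 end onward into SLC1A2. Loop21696, in the anchor next to that of the CD44 start, was not called (0.17 at 72 h against 0 h, edgeR adjusted p = 0.317). Of the 21 members that passed the filter on low counts, 6 rose and 3 fell at 72 h against 0 h, together 42.9% (edgeR quasi-likelihood test, Benjamini-Hochberg adjusted p under 0.05). Over all 24132 tested loops, 33.6% were called, 16.7% rising and 16.9% falling. The members' median log2 fold change was 0.09, against 0.01 over all loops. The 0 h and 72 h libraries did not overlap in 6 members, and in 28.3% of all tested loops. At 6 h against 0 h, 1 member rose and none fell, against 6.41% called over all loops, 2.34% rising and 4.07% falling. That member, loop21670, was tested only through its higher 6 h and 72 h libraries, and it is also among the 6 that rose at 72 h. By edgeR's test, 3 members passed an unadjusted p of 0.05 at 6 h, as did 4908 of all 24132 tested loops. DESeq2 called 0 members at 6 h, and 479 loops over all. Between 6 h and 72 h, 3 rose and 3 fell, against 20.5% over all loops, 10.7% rising and 9.81% falling. The members left untested for low counts were loop21676 and loop21701.

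**Figure D1:**
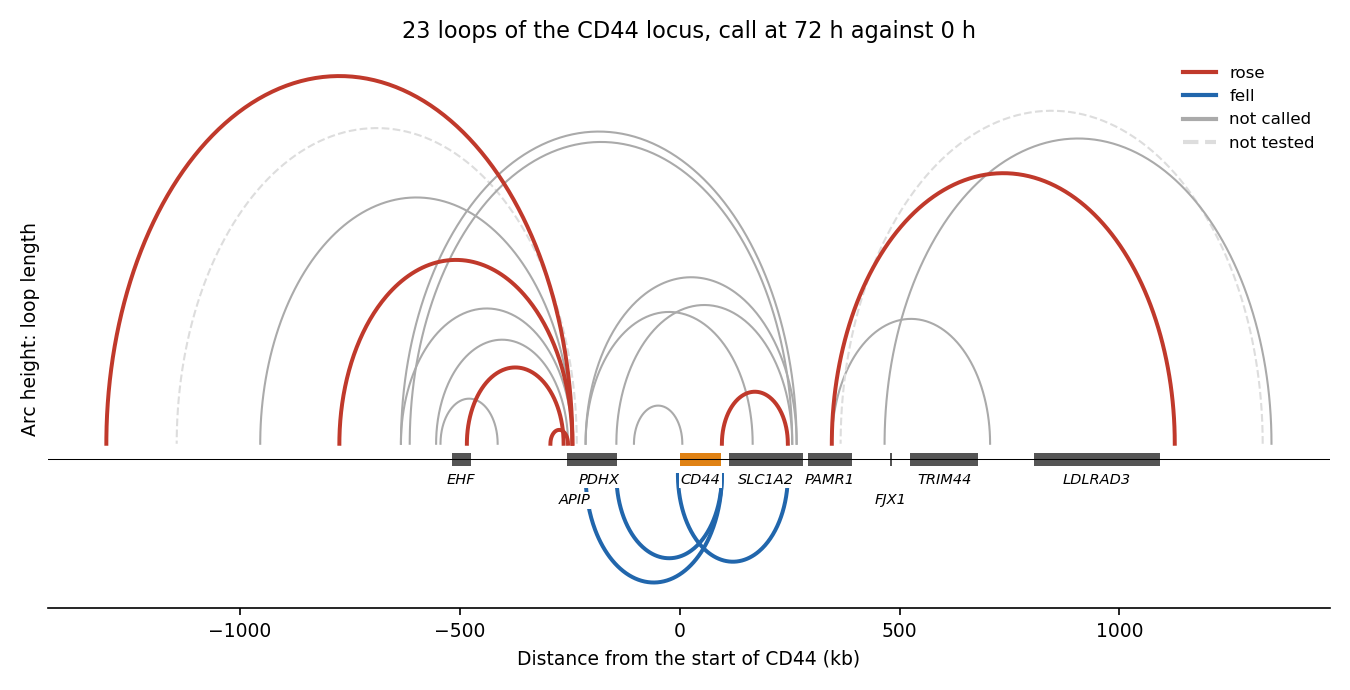
Arc map of the 23 loops by distance from the start of CD44 in kb, with arc height growing with loop length and loops that fell drawn below the line. The 3 loops that fell at 72 h against 0 h all have an anchor in CD44, and the 6 that rose lie on both sides and between the CD44 end and SLC1A2. Loop21670, among these 6, was tested only through its higher 6 h and 72 h libraries.

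The loop at the start of CD44, loop21697, joined it over 250 kb to an anchor inside SLC1A2 (chr11:35380001-35390000), the gene of a glutamate transporter of glial cells. Its normalized contacts, per 1000000 in tested loops, were 36.9, 35.1, 38.9 and 42.1 in replicates 1 to 4 at 0 h, then 34.3, 31.8, 42.5 and 29.0 at 6 h, and 21.2, 20.1, 28.1 and 29.5 at 72 h. All 4 libraries at 72 h lay below all 4 at 0 h, while 6 h overlapped both. The means were 38.3 ± 3.0 (SD, n = 4), 34.4 ± 5.8 (n = 4) and 23.4 ± 4.7 (n = 3). Contacts fell by 0.58 on the log2 scale at 72 h against 0 h (SE 0.17, edgeR adjusted p = 0.00559). The difference was -0.15 at 6 h (adjusted p = 0.665) and -0.43 from 6 h to 72 h (adjusted p = 0.0820), neither past the threshold. Within replicates 1 and 2 the 72 h value was -0.77 (edgeR adjusted p = 0.0166), and within replicates 3 and 4 it was -0.46 (adjusted p = 0.167).

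The 3 loops at the CD44 end shared 1 anchor and reached PDHX on the upstream side and SLC1A2 downstream. PDHX encodes a structural component of the pyruvate dehydrogenase complex. Loop21694 ran 240 kb from the PDHX 3′ end (chr11:34990001-35000000) to the CD44 end and had the largest difference of the 5 loops in CD44. It held 57.2, 39.9, 56.5 and 50.0 normalized contacts at 0 h, 60.8, 56.1, 58.0 and 51.9 at 6 h, and 26.5, 22.1, 20.8 and 36.6 at 72 h. Every library at 72 h lay below every library at 0 h and 6 h. Contacts fell by 0.88 at 72 h against 0 h (SE 0.16, edgeR adjusted p = 6.11e-06, 1.84-fold lower) and by 1.03 from 6 h to 72 h (SE 0.16, adjusted p = 6.20e-07, 2.04-fold lower). At 6 h the difference was 0.15 (adjusted p = 0.612), within an interval of -0.14 to 0.44 (2 SE on each side). The falls within replicates 1 and 2 and within 3 and 4 were -0.98 and -0.81 at 72 h against 0 h, both past the threshold.

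Loop21691 ran 310 kb from inside PDHX (chr11:34920001-34930000) to the same CD44 anchor. It held 44.2, 44.6, 50.2 and 55.7 normalized contacts at 0 h, 52.0, 43.9, 45.3 and 45.8 at 6 h, and 35.4, 40.2, 41.6 and 26.8 at 72 h. The 72 h libraries again lay below all others, by a small margin. Contacts fell by 0.41 at 72 h against 0 h (SE 0.16, edgeR adjusted p = 0.0307, 1.33-fold lower), and from 6 h to 72 h the difference was -0.38 (adjusted p = 0.0798). The 72 h call was lost with DESeq2 (adjusted p = 0.1002), and in edgeR without 0 h replicate 4 (0.0907), 72 h replicate 1 (0.0543) or 72 h replicate 4 (0.163). Within replicates 1 and 2 the value was -0.24 (edgeR adjusted p = 0.442), against -0.63 within 3 and 4 (0.0332).

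Loop21698 ran the other way, 150 kb from the CD44 end to the SLC1A2 anchor that loop21697 also used. Its normalized contacts were 42.7, 38.0, 51.4 and 75.0 at 0 h, 69.6, 46.7, 35.4 and 66.4 at 6 h, and 86.7, 86.3, 72.8 and 82.1 at 72 h. The 72 h libraries lay above all 6 h libraries, but 0 h replicate 4 (75.0) lay above 72 h replicate 3 (72.8). Contacts rose by 0.69 at 72 h against 0 h (SE 0.14, edgeR adjusted p = 2.48e-05, 1.61-fold) and by 0.55 from 6 h to 72 h (SE 0.14, adjusted p = 0.00172, 1.47-fold). Within replicates 1 and 2 the rise against 0 h was 1.04, and within replicates 3 and 4 the value was 0.28 (edgeR adjusted p = 0.294). From 6 h to 72 h the values within the pairs were 0.56 and 0.56, with adjusted p of 0.0265 and 0.0575.

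The remaining loop with an anchor in CD44, loop21696, ran 110 kb from an anchor upstream (chr11:35030001-35040000), inside the long noncoding RNA gene LOC105376626, to the anchor next to that of the CD44 start (chr11:35140001-35150000). It held 60.1, 57.9, 74.0 and 67.1 normalized contacts at 0 h, 69.6, 71.0, 72.2 and 84.4 at 6 h, and 70.8, 81.3, 66.6 and 69.6 at 72 h. The 3 times overlapped. No comparison was past the threshold, with 0.17 at 72 h against 0 h (edgeR adjusted p = 0.317) in an interval of -0.09 to 0.42 (2 SE on each side).

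**Figure D2:**
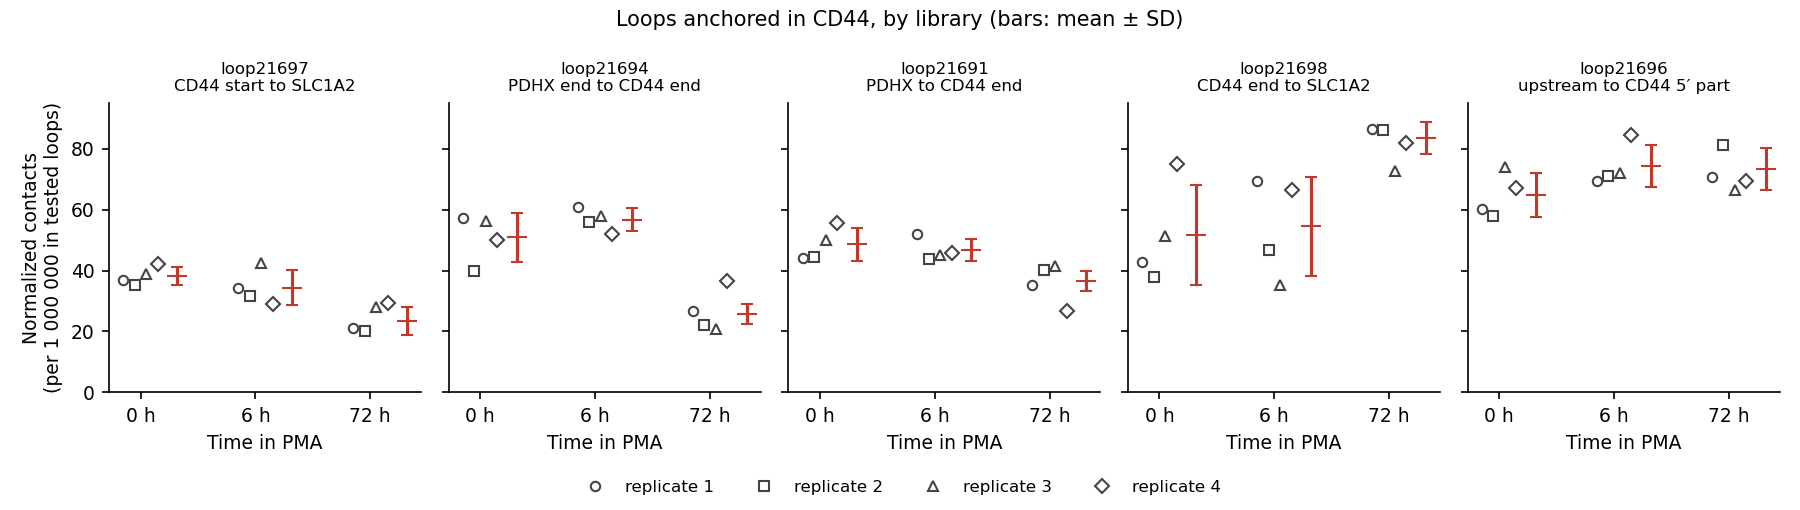
Normalized contacts (per 1000000 in tested loops) of the 5 loops with an anchor in CD44, by time in PMA, with a symbol for each of the 4 replicates and a bar for the mean ± SD. At 72 h, loop21697, loop21694 and loop21691 lie below all their 0 h libraries, loop21698 lies at 72.8 to 86.7, and loop21696 overlaps at all times.

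Set against each other, the 3 loops at the CD44 end stood in other proportions at 72 h than before, while their sums overlapped at all times. The sum was 151 ± 24 normalized contacts at 0 h (SD, n = 4), 158 ± 19 at 6 h (n = 4) and 146 ± 4.8 at 72 h (n = 3). Of the 98 to 199 raw contacts that a library held in these loops, loop21698 took 33.7% ± 5.4 at 0 h, 34.0% ± 6.7 at 6 h and 57.2% ± 1.8 at 72 h. Its share was 53.8% to 58.3% in the 72 h libraries, above the highest at 0 h (41.5%) and at 6 h (40.4%). The share of loop21694 was 33.9% ± 5.1, 36.3% ± 4.7 and 17.7% ± 2.7 at the 3 times, and that of loop21691 was 32.4% ± 2.7, 29.8% ± 2.1 and 25.1% ± 1.7. At the SLC1A2 anchor, which loop21697 and loop21698 shared, the loop to the CD44 end took 56.7% ± 5.4 of the contacts of both at 0 h, 60.4% ± 10.8 at 6 h and 78.1% ± 4.5 at 72 h. All libraries of 72 h (72.2% to 81.1%) lay above the highest 0 h (64.1%) and 6 h (69.6%) libraries. These shares restate the loops' contacts and were looked at after the loops had been fitted, so no test was made of them.

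**Figure D3:**
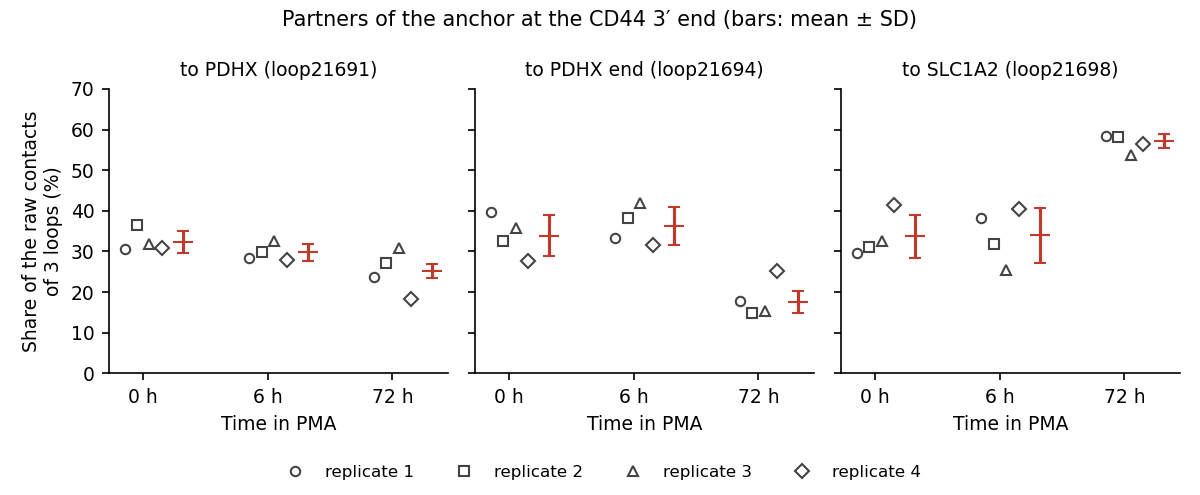
Share of the raw contacts of the 3 loops at the CD44 end that each loop took, in %, by time in PMA, with a symbol for each replicate and a bar for the mean ± SD. The share toward SLC1A2 is 53.8% to 58.3% at 72 h and at most 41.5% at 0 h, and the share of the loop to the PDHX end is lower at 72 h (mean 17.7%) than at 0 h (33.9%).

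The 5 loops that spanned CD44 joined ELF5 or PDHX and their surroundings to SLC1A2. None was called at 72 h against 0 h, where their log2 differences were between -0.61 and 0.24, with a median of -0.40. From 6 h to 72 h, loop21692 and loop21684 fell. Loop21692, 380 kb from PDHX (chr11:34920001-34930000) to SLC1A2 (chr11:35300001-35310000), held 28.2, 29.4, 43.9 and 39.8 normalized contacts at 0 h, 44.1, 43.0, 38.2 and 38.6 at 6 h, and 23.9, 25.1, 22.9 and 29.5 at 72 h. All its 72 h libraries lay below those of 6 h but not below all those of 0 h. It fell by 0.66 (SE 0.18, edgeR adjusted p = 0.00339). Against 0 h, its value of -0.40 (adjusted p = 0.0697) passed the edgeR threshold without 0 h replicate 1 (0.0334), 0 h replicate 2 (0.0423) or 72 h replicate 4 (0.0492). With no filter on low counts, its value passed as well (-0.46, edgeR adjusted p = 0.0405). Its value from 6 h to 72 h was -0.79 within replicates 1 and 2 and -0.50 within 3 and 4 (edgeR adjusted p = 0.205). Loop21684 ran 900 kb from ELF5, the gene of an epithelial ETS factor (chr11:34500001-34510000), to SLC1A2 (chr11:35400001-35410000). It held 15.2, 16.1, 15.1 and 10.2 at 0 h, 14.7, 16.8, 21.2 and 24.1 at 6 h, and 8.85, 10.0, 12.5 and 9.82 at 72 h, so that 72 h lay below 6 h throughout. Its fall of 0.77 (SE 0.25, edgeR adjusted p = 0.0177) rested on 10 to 20 raw contacts per library and was lost with DESeq2 (adjusted p = 0.0825), and in edgeR without 6 h replicate 4 (0.0791) or 72 h replicate 1 (0.0540). It was -0.66 within replicates 1 and 2 (edgeR adjusted p = 0.241) and -0.91 within 3 and 4 (0.0754), neither past the threshold. With an offset for loop length, its value at 72 h against 0 h went from -0.42 (edgeR adjusted p = 0.192) to -0.70 (0.0237) and passed the threshold. The 3 others were not called in any comparison.

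Counted by whether the span between the outer edges of the anchors held the whole of CD44, a split made after the values were seen and not tested, 8 tested members held the gene and 13 did not. Of the 8, at 72 h against 0 h, 3 fell and 0 rose, 7 had negative values, and the median log2 difference was -0.41. Of the 13, 6 rose and 0 fell, 12 had positive values, and the median was 0.26. These 6 include loop21670, which was tested only through its higher 6 h and 72 h libraries. Over all tested loops, 16.7% rose and 16.9% fell, and nothing is read from these counts about loops that hold CD44. At 6 h the medians were 0.09 and 0.10. Loop21693, from PDHX to SLC1A2 over 480 kb, was the single loop holding CD44 with a positive value at 72 h (0.24, edgeR adjusted p = 0.251).

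**Figure D4:**
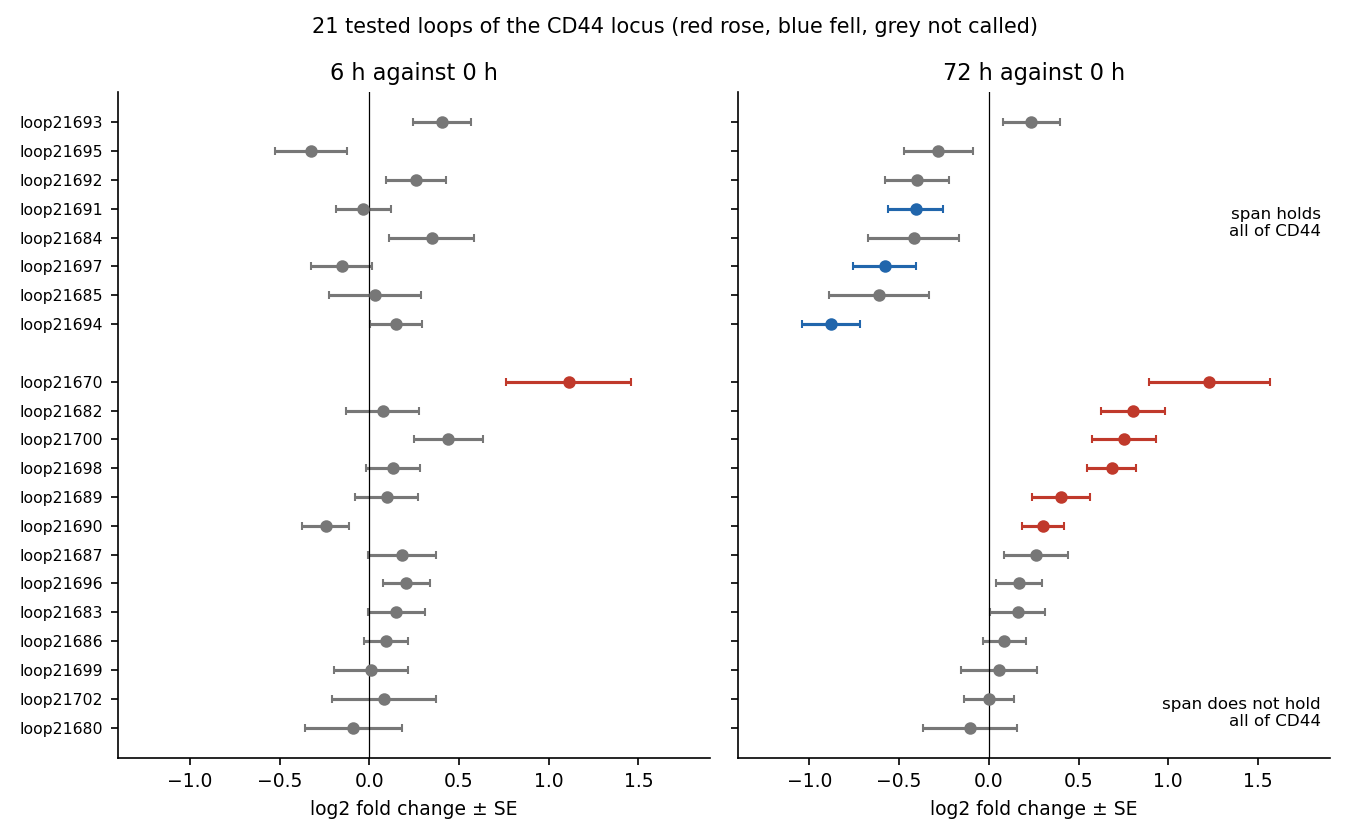
Log2 fold change ± SE of the 21 tested members at 6 h and 72 h against 0 h, divided by whether the loop's span holds all of CD44. At 72 h, 7 of the 8 loops that hold the gene lie below 0, with 3 called, and 12 of the 13 others lie above 0, with 6 called, where 33.6% of all tested loops were called. The division was made after the values were seen and was not tested. Loop21670, among the 6 called, was tested only through its higher 6 h and 72 h libraries.

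Upstream of CD44, 4 of the 5 further loops that rose ended at or near APIP, which encodes an enzyme of the methionine salvage pathway. So did loop21676, which was untested, and loop21680, loop21683 and loop21686, which were not called. Loop21686, at the same APIP end as loop21690, gave 0.09 at 72 h against 0 h (edgeR adjusted p = 0.609). Loop21682 ran 530 kb from an intergenic anchor (chr11:34360001-34370000) into APIP (chr11:34890001-34900000). It held 18.8, 15.2, 26.3 and 33.0 normalized contacts at 0 h, 17.7, 25.2, 28.3 and 25.3 at 6 h, and 45.1, 37.1, 38.5 and 41.1 at 72 h, and the 72 h libraries lay above all others. It rose by 0.80 at 72 h against 0 h (SE 0.18, edgeR adjusted p = 0.000160, 1.74-fold) and by 0.73 from 6 h to 72 h (SE 0.18, adjusted p = 0.00183). Against 0 h the rise was 1.17 within replicates 1 and 2, and the value was 0.39 within 3 and 4 (edgeR adjusted p = 0.254). From 6 h to 72 h the rise was 0.88 within replicates 1 and 2, and the value was 0.54 within 3 and 4 (edgeR adjusted p = 0.167).

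Loop21690, the shortest member, joined chr11:34840001-34850000, inside the long noncoding RNA gene LOC102723568, over 40 kb to the APIP end (chr11:34880001-34890000). It held 71.0, 85.4, 81.5 and 81.9 normalized contacts at 0 h, 46.1, 67.3, 80.7 and 78.4 at 6 h, and 96.4, 92.4, 104 and 100 at 72 h. The 72 h libraries lay above all others, by least over 0 h. It rose by 0.54 from 6 h to 72 h (SE 0.13, edgeR adjusted p = 0.000681) and by 0.30 at 72 h against 0 h (SE 0.12, adjusted p = 0.0374). The second call was lost under 15 of 25 alternatives, DESeq2 among them (adjusted p = 0.142). In edgeR it was lost without 0 h replicate 1 (adjusted p = 0.211), 3 (0.0613) or 4 (0.0623), 6 h replicate 3 (0.0513) or 4 (0.0507), or 72 h replicate 1 (0.0605), 3 (0.105) or 4 (0.0831). It was also lost with 72 h replicates 3 and 4 summed (edgeR adjusted p = 0.0671), within replicates 1 and 2 (0.242) and within 3 and 4 (0.156). From 6 h to 72 h the rise was 0.71 within replicates 1 and 2, and the value was 0.35 within 3 and 4 (edgeR adjusted p = 0.162).

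Loop21689 joined EHF, the gene of another epithelial ETS factor (chr11:34650001-34660000), over 220 kb to chr11:34870001-34880000, which holds an end of LOC102723568. It held 30.4, 32.3, 26.3 and 40.9 normalized contacts at 0 h, 31.4, 36.4, 32.5 and 38.6 at 6 h, and 40.7, 49.2, 37.4 and 46.4 at 72 h. Its 0 h and 72 h libraries overlapped through 0 h replicate 4. Its rise of 0.40 at 72 h against 0 h (SE 0.16, edgeR adjusted p = 0.0408) was lost under 14 of 25 alternatives, DESeq2 among them (adjusted p = 0.148). In edgeR it was lost without 0 h replicate 1 (adjusted p = 0.139), 2 (0.0794) or 3 (0.128), 6 h replicate 3 (0.0513) or 4 (0.0520), or 72 h replicate 2 (0.135) or 4 (0.105). It was also lost with 72 h replicates 3 and 4 summed (edgeR adjusted p = 0.0528), within replicates 1 and 2 (0.101) and within 3 and 4 (0.394).

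Loop21670, the longest member at 1060 kb, ended at the same APIP anchor as loop21682 and was the one member that rose at 6 h. It held only 1, 5, 2 and 6 raw contacts at 0 h, 4, 5, 11 and 15 at 6 h, and 7, 14, 15 and 9 at 72 h. All 72 h libraries exceeded all 0 h libraries in raw contacts, but not once normalized (lowest at 72 h 6.19, highest at 0 h 6.82). For counting error alone, the exact 95% Poisson bounds of a count of 10 are 4.80 and 18.4. No 0 h library reached the filter's minimum count of 10, so that the loop was tested only through its higher 6 h and 72 h libraries. It rose by 1.11 at 6 h (SE 0.35, edgeR adjusted p = 0.0346) and by 1.23 at 72 h (SE 0.34, adjusted p = 0.00219). The 6 h call was lost in edgeR without 0 h replicate 1 (adjusted p = 0.265), 0 h replicate 3 (0.0794), 6 h replicate 3 (0.143) or 6 h replicate 4 (0.274), and the 72 h call without 0 h replicate 1 (0.0530) and with DESeq2 (0.0852). Within replicates 3 and 4 both calls were lost (edgeR adjusted p = 0.0817 at 6 h and 0.114 at 72 h), and the 6 h call also with an offset for loop length (0.0798). The loop had no value within replicates 1 and 2, nor with DESeq2 at 6 h. This left 23 alternatives at 6 h and 24 at 72 h, both against 0 h. The other loops at this APIP anchor, loop21680 and loop21683, were not called in any comparison, with -0.11 and 0.16 at 72 h against 0 h.

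Downstream of CD44, loop21700 joined PAMR1, the gene of a secreted peptidase-domain protein (chr11:35480001-35490000), over 780 kb to an intergenic anchor (chr11:36260001-36270000) past the far end of LDLRAD3. It held 21.0, 23.7, 23.8 and 27.3 normalized contacts at 0 h, 28.4, 41.1, 29.7 and 30.2 at 6 h, and 32.7, 33.1, 59.3 and 41.1 at 72 h. Both later times lay above all 0 h libraries. It rose by 0.75 at 72 h against 0 h (SE 0.18, edgeR adjusted p = 0.000361, 1.68-fold), and the 6 h value was 0.44 (adjusted p = 0.159). The 72 h value was 0.52 within replicates 1 and 2 (edgeR adjusted p = 0.123), 0.89 within replicates 3 and 4, and 0.50 with an offset for loop length (adjusted p = 0.0224). Loop21699, from the same PAMR1 anchor over 360 kb, gave 0.06 at 72 h (edgeR adjusted p = 0.865). Loop21702, which reached the end of TRAF6, the gene of a ubiquitin ligase in innate immune signalling, was not called either.

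In the authors' deposited table, loop21682 and loop21698 were classed as gained, with log2 fold changes of 0.70 and 0.64 at 72 h. In the authors' deposited table, loop21694 was classed as lost, with -0.78 at 72 h, and the other 20 members as static. The loop at the CD44 start, loop21697, was thus static there, with -0.42 at 72 h. Its adjusted p in the authors' deposited table was 0.182. That value was the same under 6 h and 72 h, as for all 33914 loops, and so is not a test of 72 h against 0 h alone.

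Outside the locus, the 3 loops whose log2 normalized contacts followed loop21697 most closely over the 12 libraries were loop18083 on chromosome 8 (Pearson r = 0.97), loop30283 on chromosome 18 (0.95), and loop27771 on chromosome 15 (0.94). They were the highest of 24111 correlations, whose median was 0.00, and all share the same libraries and depths. None of the anchors of these 3 loops contained a protein-coding gene's start or end, and they lay in part in RPRD1A, FHOD3 and SHC4. Their log2 differences at 72 h against 0 h were -0.69, -0.51 and -0.40.

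Loops at genes of hyaluronan metabolism and of CD44's partners elsewhere in the genome were counted for the same comparison. A list of 24 such genes had 16 with a loop at an end of the gene, and 34 of their 37 loops were tested. At 72 h against 0 h, 5 rose and 6 fell, together 32.4%, close to the 33.6% over all loops, with a median of 0.08 against 0.01. The rising loops stood at SPP1, which encodes the CD44 ligand osteopontin (0.96, SE 0.15, edgeR adjusted p = 5.50e-08), at SLC3A2 (0.49) and, with 3 of its 4 tested loops, at CEMIP (0.81, 0.56 and 0.36), which encodes a hyaluronan-degrading protein. The falling loops stood at HYAL2, a hyaluronidase gene (-0.71 and -0.56), at MMP14, a membrane protease gene (-0.47 and -0.43), at CEMIP2 (-0.50) and at HMMR, a hyaluronan receptor gene (-0.35). At SPP1, loop9169 (0.65, edgeR adjusted p = 0.0570) and loop9173 (0.25, 0.441) were not called. Nor were loop19330 (0.33) and loop19325 (0.11) at CEMIP2, both with positive values. None of the tested loops at HAS1, HAS2 or HAS3, the hyaluronan synthase genes, was called.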

How the data were processed

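The authors deposited a table of raw contact counts per loop in 30 columns, with loop positions (another kind of value), log2 fold changes, an adjusted p-value and a class, per the file headers. The submitters' processing notes name Juicer 1.5.6, DESeq2 and hg38. How loops were called, and the scaling behind the log2 values, is not given in the sources used here. A count includes the local background of its pair of anchors. Technical replicates were summed to 12 libraries, with 72 h replicates 3 and 4 kept apart in the fits. Loops were filtered with filterByExpr (minimum count 10, minimum total 15) and fitted in 1 model with edgeR 4.0.16 in R 4.3.3 (TMM, prior count 2, adjustment over 24132 loops, threshold 0.05), after tests on simulated data. DESeq2 1.42.0, other scalings, filters, a length offset, batch terms and left-out libraries were the alternatives. SE is the fold change over the root of F. Same-numbered samples of different times had correlated deviations of 0.01 to 0.12, with 1 of 12 pairs over 0.1, and were not treated as pairs. Of these 12 pairs, 10 correlated best with their own number, and a fit with the replicate number as a block was among the alternatives.

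Members and lists were chosen with earlier results of these data known. Every member with an anchor in CD44 or past the threshold in any comparison is named with its values, and the others by range. The 3 most alike loops were taken by Pearson correlation over the libraries. Gene positions are from RefSeq.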

Additional observations from a re-analysis of the deposited data

Results flagged for a closer look

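In loop21700, from PAMR1 to beyond LDLRAD3, 6 h replicate 2 stood apart with 41.1 normalized contacts, where the other 6 h libraries held 28.4 to 30.2. It was 1 of 24 groups of 4 libraries examined in the loops named with their values, in which chance gives about 1.2.

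The effects of 6 h and 72 h of PMA, both taken against 0 h, differed in 6 members by edgeR's test of 72 h against 6 h. These were 28.6% of the 21 tested members, against 20.5% over all tested loops. The 72 h value exceeded the 6 h value by 0.73 in loop21682, 0.54 in loop21690 and 0.55 in loop21698. It was lower in loop21684 (-0.77), loop21692 (-0.66) and loop21694 (-1.03). In 4 of these members the values at 6 h and 72 h had opposite signs, with -0.24 and 0.30 in loop21690, 0.35 and -0.42 in loop21684, 0.26 and -0.40 in loop21692, and 0.15 and -0.88 in loop21694. None of these 4 values at 6 h was past the edgeR threshold (adjusted p = 0.288, 0.421, 0.387 and 0.612, in this order). At 72 h, loop21684 (edgeR adjusted p = 0.192) and loop21692 (0.0697) were not past it either. No reversal is read from these signs.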

How the results depend on the processing

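No result changed its direction past a threshold. The 16 log2 fold changes called kept their sign in all 397 alternative values and stayed past the threshold in 340. Of the 20 not called, 5 of 493 alternative values passed it. Loop21694 kept both its 72 h calls under all alternatives. At 6 h against 0 h, where 1 member was called, the count was 0 with DESeq2, with the length offset, within replicates 1 and 2 and within 3 and 4, 2 with a mean count of at least 5, and 0 to 2 on leaving out each library (0 without 0 h replicate 1 or 3 or 6 h replicate 3 or 4, and 2 without 0 h replicate 4 or 6 h replicate 2). Loop21670, the member called at 6 h, had no value within replicates 1 and 2, nor with DESeq2 at 6 h. At 72 h against 0 h, where 9 were called, the count was 5 with DESeq2. It was 5 within replicates 1 and 2, 4 within 3 and 4, and 7 to 10 on leaving out each library. At 72 h against 6 h, where 6 were called, it was 1 within replicates 3 and 4, and 5 to 7 on leaving out each library. The hyaluronan list gave 4 in place of 11 within replicates 3 and 4. Loop21691 lost its call at 72 h against 0 h with DESeq2 (-0.44), with TMM over chromosome 11 (-0.37) and within replicates 1 and 2 (-0.24), and gave -0.49 to -0.30 on leaving out each library. Within replicates 3 and 4, loop21697 (-0.46) and loop21698 (0.28, and 0.56 from 6 h) lost theirs, and so did loop21670, loop21682, loop21689 and loop21690 against 0 h, and loop21682, loop21684, loop21690 and loop21692 between 6 h and 72 h. Fits within 2 replicates hold fewer samples, and the cause of the lost calls was not tested further. Over all loops, the called count at 72 h against 0 h was 8105, and 4977 with DESeq2. It was 4947 within replicates 1 and 2 and 3973 within 3 and 4. At 6 h against 0 h the same counts were 1546, 479, 526 and 213. With contacts in loops of chromosome 11 as the base, the shares were 1.19%, 1.32% and 1.34% at 0 h, 6 h and 72 h. With the replicate number as a block, the member counts stayed at 1, 9 and 6, and the block gave loop21697 -0.60, loop21694 -0.88 and loop21698 0.69 at 72 h against 0 h. In the check of pairing, 10 of 12 pairs correlated best with their own number, although weakly (0.01 to 0.12). Over all loops, the block raised the called count at 72 h against 0 h from 8105 to 8560, and at 6 h from 1546 to 1938. What same-numbered samples share was not tested further. Depth limits the loops with few contacts: for counting error alone, the exact 95% Poisson bounds of a count of 32 are 21.9 and 45.2.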
